A study of Mus musculus with 3 samples.

Results

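In AH2, 256 NBS1 peaks lay on DNA that also formed a peak in AH2 input and had no NBS1 peak in R2K.Artm. They were chosen from the deposited peak lists by overlap: at least 1 base shared with an AH2 input peak, no base shared with an R2K.Artm NBS1 peak, and no base shared with the list of AH2 NBS1 peaks after subtraction. Peaks on unplaced sequence, on chromosomes X, Y and M, with a start below 5 Mb, or in the windows of the immunoglobulin heavy chain (Igh) and kappa light chain (Igk) loci were left out. The 256 peaks made up 4.92% of the 5201 AH2 NBS1 peaks (95% Wilson interval 4.37 to 5.54%).

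The study asked, by its title, whether RAG1/2 breaks DNA outside the immunoglobulin loci, near simple repeats, in developing B cells. AH2 and R2K.Artm are 2 lines of mouse pre-B cells carrying the v-Abl oncogene, and the labels name neither a genotype nor a treatment for either. Each gave 1 chromatin immunoprecipitation library with a rabbit monoclonal antibody to NBS1, and AH2 also gave 1 input library of sonicated chromatin that was not selected with an antibody. No input library of R2K.Artm was analysed here, so the only input is that of the line in which the peaks were found.

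Each of the 3 groups is 1 library. Replicate spread is therefore unknown, groups could not be tested against each other, and no p-value is given. Intervals on shares and medians reflect the number of peaks alone and count each peak as its own draw.

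With MRE11 and RAD50, NBS1 forms a complex that gathers at the ends of DNA double-strand breaks and recruits the ATM kinase. In developing B cells such breaks are made by RAG1/2 at the signal sequences that flank antigen receptor gene segments. Cells that carry v-Abl keep dividing at the pre-B stage. An input library carries no NBS1 selection. An input peak therefore marks DNA that yielded many mapped reads without the antibody, which happens at sequence that is repeated or collapsed in the reference, at amplified DNA, and in chromatin that breaks easily in sonication. Which of these applies to any peak here was not tested.

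The sources do not settle what was subtracted to make the subtracted list: its name gives R2K.Artm NBS1 and input, and its header gives R2K.Artm NBS1 alone. What absence from it means for peaks on input is therefore not known. The choice went through few steps. Of the 5201 AH2 NBS1 peaks, 405 overlapped input and not R2K.Artm. Of these, 92 were removed by region: 40 on unplaced or random sequence, 23 on chromosome X, 19 with a start below 5 Mb and 10 in the Igh window. A further 57 of the remaining 313 overlapped the subtracted list. The peak of the 256 with the lowest start was on chromosome 14 at 5072058 to 5072359, with a score of 52.4. The closest one outside the 5 Mb limit was on chromosome 6 at 4929318 to 4929379, with a score of 117.95.

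The overlap limit also had peaks close on each side. The smallest overlap among the 256 was 16 bases, on chromosome 18 at 21074086 to 21074156, 22.5% of that peak. The next smallest were 45 bases on chromosome 9 at 100215960 to 100216061 and 47 bases on chromosome 10 at 46179066 to 46179192. Just outside, 3 peaks that met every other condition lay 3, 11 and 27 bases from an input peak, on chromosome 8 from 9946741 to 9946869, on chromosome 7 from 85536153 to 85536254, and on chromosome 17 from 5397396 to 5397513. Within 100 bases of an input peak there were 8 such outsiders.

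To place these peaks, every AH2 NBS1 peak that passed the same region limits and was absent from the subtracted list was put in 1 of 4 classes, 3543 peaks in all. Besides the 256, which were 7.23% of them, 777 overlapped both R2K.Artm NBS1 and input, 538 overlapped R2K.Artm NBS1 only, and 1972 overlapped neither. All 4 classes come from the same AH2 library and peak list, so scores and widths are on 1 scale. The score is the value that the authors' peak caller gave each peak, used here only within its own list.

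In AH2 the 256 peaks were of middling score. Their scores ran from 50.2 to 197, with a median of 69.6 (95% interval 67.8 to 75.5), close to the 67.6 of the whole AH2 NBS1 list. The middle of the distribution, between its quartiles, lay from 59.0 to 89.9. Scores of at least 100 were reached by 44 of them, 17.2% (13.1 to 22.3%), against 27.1% over the 4 classes. The class shared with both other lists had a median of 167 and 74.4% of peaks at 100 or above, and the class in AH2 alone had a median of 58.3 and 6.54%. The 57 peaks removed for lying in the subtracted list had a median of 74.9 and reached 759, so the upper end of the range was set in part by that removal.

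Score and the absence of an R2K.Artm peak went together. The shares here are within the 4 classes and leave out the 57 peaks on input removed for lying in the subtracted list. Those 57 had an upper quartile of 122 and a highest score of 759, so the fall at high scores depends in part on that removal. Among peaks of the 4 classes that overlapped input, those with no R2K.Artm peak were 70 of 105 at scores from 50 to 60, 66.7%. Their share was 55.3% at scores from 60 to 80 and 36.7% from 80 to 100. It was 19.8% from 100 to 150 and 6.58%, 5 of 76, from 150 to 200. None of the 256 had a score of 200 or more, and 349 of the 777 shared peaks did. A weak peak is more easily missed by a caller in 1 of 2 libraries, and the part this plays in the 256 was not tested. The overlaps used here are those that chose the peaks, so these shares are a description.

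In the input list the same sites stood higher, as did those of the 777. The input peaks under the 256 had a median score of 85.8 (78.0 to 94.9), against 59.9 over all 11903 input peaks. The median member lay above 52.8% of the AH2 NBS1 list by its NBS1 score, and its input peak lay above 82.96% of the input list. Placed in this way, 202 of the 256, 78.9%, stood higher in input than in NBS1. The 777 did so as well: 647 of them, 83.3%, with medians above 87.6% of the NBS1 list and 95.01% of the input list. In the highest 10% of the input list were 73 of the 256, and in the highest 10% of AH2 NBS1 none. The lists differ in length, so this order describes each list and is no measure of enrichment.

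Input peaks under the 256 fell between other groups of input peaks. In the allowed regions, 9310 input peaks touched no NBS1 peak and had a median score of 58.0 (57.8 to 58.3). The 773 that touched both NBS1 lists had a median of 187 (172 to 207), and the 253 distinct input peaks under the 256 had 85.7 (78.0 to 94.6). An input score of at least 100 was found for 98 of the 256, 38.3% (32.5 to 44.4%), against 65.9% over the 1033 peaks of the 4 classes that overlapped input. Narrow input peaks, under 80 bases, were 23.3% of the 253, 17.3% of the 773, and 391 of the 9310.

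Across the 256 sites the NBS1 score did not follow the input score. Spearman's rho was 0.03 over the 256, against 0.76 over the 777 peaks shared with both lists. Part of that gap goes with the range: among the 428 shared peaks with an NBS1 score below 200, rho was 0.24. Sites are not independent replicates, and all share the same libraries, so these values are descriptions with no test.

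The peaks that led by score were mostly very narrow. The highest was on chromosome 1 at 195459064 to 195459134, 71 bases wide, with an NBS1 score of 197 and an input peak of 63 bases with a score of 185. Its nearest R2K.Artm NBS1 peak was 18.3 kb away. The next was on chromosome 14 from 113107248 to 113107311, with a score of 184. The peaks on chromosome 3 from 134146434 to 134146496 and chromosome 5 from 27642449 to 27642504 had 179 and 160. These 3 were 64, 63 and 56 bases wide, and their input peaks had scores of 79.9, 72.8 and 63.7. All 4 of these sites thus stood above at least 87.0% of the NBS1 list, outside its highest 10%, and ranged from modest to strong in input.

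The other 8 of the 12 highest were spread over 7 chromosomes. On chromosome 18 at 47848924 to 47849008 the score was 157, on chromosome 3 at 42466836 to 42466896 it was 150, and on chromosome 9 at 77500756 to 77501034 it was 147. On chromosome 15 at 37132900 to 37133113 the score was 147, over an input peak of 400 bases with a score of 384. On chromosome 8 at 120725554 to 120725618 it was 140, on chromosome 5 at 33535443 to 33535571 it was 138, on chromosome 3 at 153797479 to 153797541 it was 137, and on chromosome 11 at 111405321 to 111405502 it was 134. Of the 12, 7 were under 80 bases wide, and only the peak on chromosome 9 had an R2K.Artm NBS1 peak within 10 kb. The peak on chromosome 3 at 42466836 was the most distant of all 256, with 2337 kb to the nearest R2K.Artm NBS1 peak.

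Among the 256, narrower peaks tended to have higher scores (Spearman's rho of score and width -0.37, against 0.24 over the 777), with wide overlap. The median width was 110.5 bases (104 to 119), against 117 over the 4 classes. The chromatin had been sonicated to a mean of 250 bases, per the labels' protocols, so most peaks were narrower than 1 fragment. Under 80 bases were 64 peaks, 25% (20.1 to 30.6%), against 18.4% over the 4 classes. These 64 had a median score of 98.1 (range 52.5 to 197), and the 192 wider peaks had 67.02 (range 50.2 to 157). Scores of at least 100 were held by 27 of the 64, 42.2%, and by 17 of the 192, 8.85%. Input covered 33 of the 64 over their whole width, 51.6%, and 46 of the 192, 24.0%. A narrower peak needs fewer bases covered, so a split by width favours whole coverage of the narrow peaks by construction. The input peaks under the 64 had a median score of 76.9 and a median width of 105.5 bases, against 86.9 and 120.5 bases under the 192. The narrow peaks thus had the higher median score in NBS1 and not in input.

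Narrow peaks were more frequent at scores of 100 to 150 than at scores of 50 to 60 in all 4 classes. From scores of 50 to 60 to scores of 100 to 150, their share went from 10% to 59.0% in the 256-peak class. It went from 3.21% to 56.9% in the class in neither list. With R2K.Artm only it went from 2.02% to 37.6%, and with both lists from 2.86% to 38.6%. At scores from 150 to 200 the share was 80% in the 256-peak class, but that was 4 of 5 peaks. It was 53.8% in the class in neither list, 37.5% with R2K.Artm only and 32.4% with both lists, so it rose no further there. Between scores of 100 and 200, 61.4% of the 256-peak class was under 80 bases (27 of 44, 46.6 to 74.3%). The share was 56.6% in the class in neither list (73 of 129, 48.0 to 64.8%). It was 36.7% in the class with both lists (84 of 229, 30.7 to 43.1%) and 37.6% in the class with R2K.Artm only (62 of 165, 30.5 to 45.2%). In this score range both classes without an R2K.Artm peak were thus narrower, and the interval of the 256-peak class overlapped that of neither class with one.

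**Figure D1:**
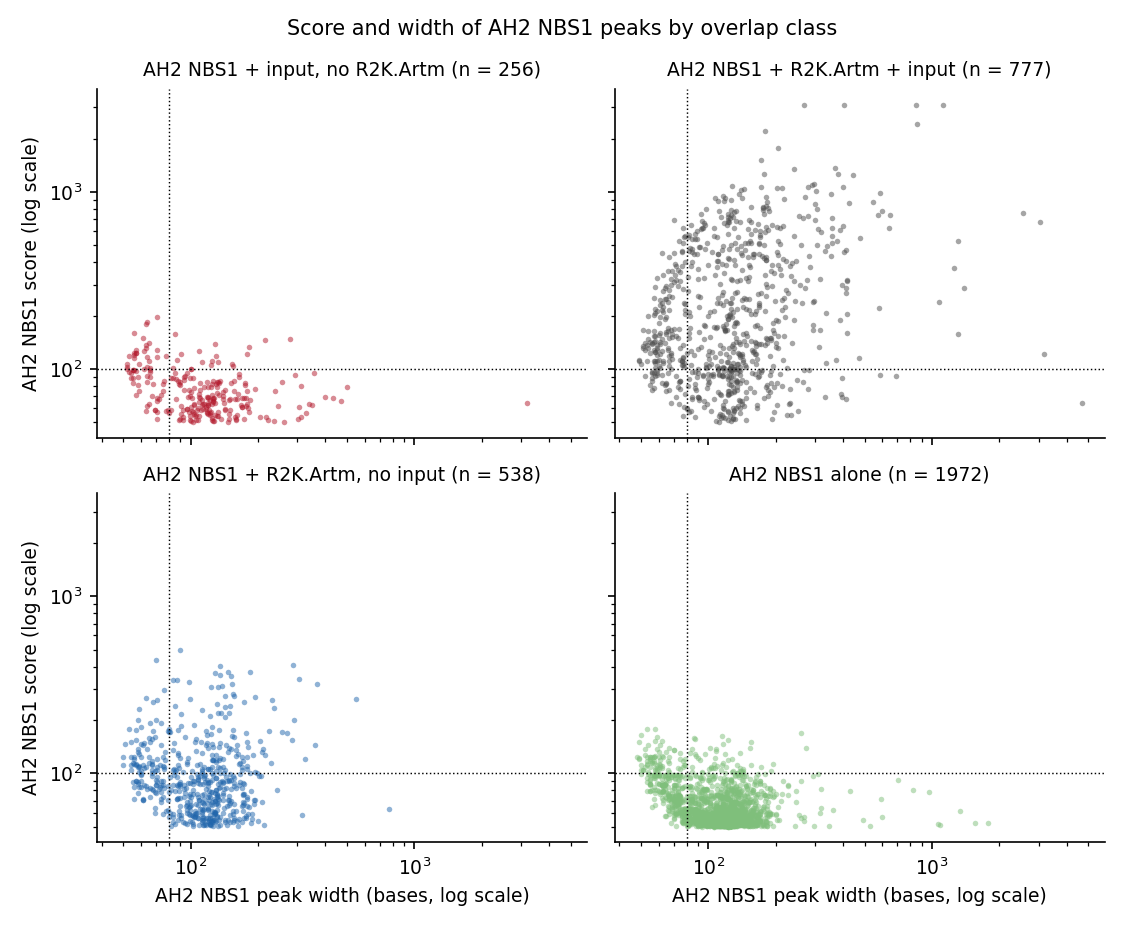
Score (vertical, log scale) against width in bases (horizontal, log scale) of AH2 NBS1 peaks, 1 point per peak, in the 4 overlap classes; dotted lines mark 80 bases and a score of 100. The 256 peaks with input and no R2K.Artm peak all lie below a score of 200, and their highest points are at the narrow end.

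At the other end, 13 of the 256 were at least 300 bases wide, 5.08% (2.99 to 8.49%), against 2.99% over the 4 classes and 8.62% of the 777. The widest spanned 3184 bases on chromosome 8 at 19924024 to 19927207 and alone held 9.07% of the 35.1 kb that the 256 covered. It lay wholly inside an input peak of 4320 bases, with an NBS1 score of 64.7 and an input score of 103. The next widest were 502 bases on chromosome 8 at 71969482 to 71969983, a stretch of 469 bases on chromosome 8 at 19772195 to 19772663, 435 bases on chromosome 10 at 57702081 to 57702515 and 398 bases on chromosome 5 at 16975726 to 16976123. None of the 13 reached a score of 100, which 44 of all 256 did, and 7 were on chromosome 8. The same counts for the wide peaks of the other classes are not given here, so neither is shown to be particular to the 13.

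The lowest score, 50.2, was that of the peak on chromosome 15 from 25179307 to 25179409. Next came chromosome 8 from 71957764 to 71958024 and chromosome 9 from 102716001 to 102716147, each with 50.4. A score of 50 is the minimum in each list. The site on chromosome 9 had an input score of 304, so a peak near the limit in NBS1 could be high in input. The 5 members with the highest input scores had low, middling and high NBS1 scores. The highest input score, 491, was under the peak on chromosome 4 from 79648671 to 79648733, whose NBS1 score was 58.1. An input score of 466 was under the peak on chromosome 14 from 70635959 to 70636116, with an NBS1 score of 67.8. The peak on chromosome 15 with the input score of 384 and the NBS1 score of 147 and 2 neighbours on chromosome 6 completed the 5. Those neighbours, at 87407336 to 87407557 and 87407595 to 87407754, were 37 bases apart inside 1 input peak of 816 bases with a score of 401, and had NBS1 scores of 51.6 and 52.5.

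NBS1 and input peaks at these sites covered much of each other but never had the same ends. The median member had 89.4% of its bases covered by input (84.8 to 93.7%). Input covered the whole width of 79 of the 256, 30.9% (25.5 to 36.8%), against 30.7% over the 1033 peaks of the 4 classes that overlapped input. In 59 more the input peak lay wholly within the NBS1 peak, and in the rest the peaks overlapped in part. The centres were 21.8 bases apart at the median, and within 25 bases of each other in 147 of the 256, 57.4%. For the 777 peaks shared with both lists the values were 17.0 bases and 62.9%. Less than 50% of the width was covered in 32 of the 256, 12.5% (8.995 to 17.1%), and in 53 of the 777, 6.82% (5.25 to 8.81%). Whole coverage was thus about as frequent in each class, and thin coverage was more frequent among the 256, with intervals apart.

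**Figure D2:**
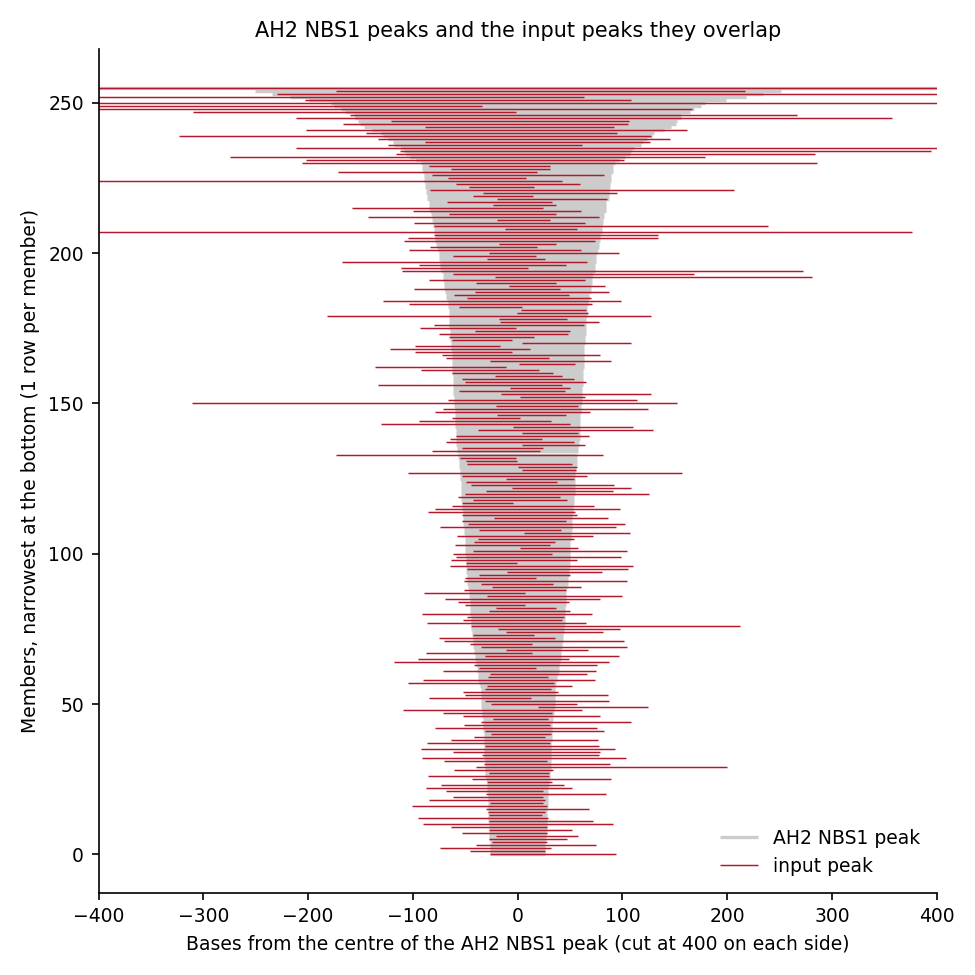
Each of the 256 AH2 NBS1 peaks (grey) with the input peak it overlaps most (red), in bases from the centre of the NBS1 peak, ordered by NBS1 width and cut at 400 bases on each side. Most input peaks sit on the centre of the NBS1 peak, and a minority reach far beyond it on 1 or both sides.

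Most of the 256 were far from any R2K.Artm NBS1 peak, and a small group was right beside one. The median distance was 229 kb (167 to 298 kb), and within 100 kb were 88, 34.4% (28.8 to 40.4%), against 23.7% of the 2228 peaks with no R2K.Artm overlap. An R2K.Artm NBS1 peak lay within 1 kb of 19, 7.42% (4.80 to 11.3%), against 2.02% of the 2228 and 1.32% (0.901 to 1.92%) of the 1972 in AH2 alone. The share was 13.3% among members with an input score of at least 100 and 15.5% when no region was excluded. Of the 19, 9 were within 100 bases, 3.52% of the 256 (1.86 to 6.55%). The share was 0.673% of the 2228 and 0.304% (0.140 to 0.662%) of the 1972. The distance is another reading of the overlap that chose the peaks and is given as a description.

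The nearest of these sites held adjoining peaks of each library. On chromosome 9 the NBS1 peak at 77500756 to 77501034 was 19 bases from an R2K.Artm peak at 77500502 to 77500736, and the AH2 input peak at 77500693 to 77501056 reached across the gap between them. On chromosome 5 the peak at 15062450 to 15062631 was 35 bases from an R2K.Artm peak with a score of 76.1. On chromosome 2 the peaks at 181651996 to 181652288 and 33789736 to 33789910 were 44 and 57 bases from one, and on chromosome 8 the peak at 73635637 to 73635940 was 62 bases from one. Input peaks that touched an R2K.Artm NBS1 peak as well were found under 4 of the 256, and all 4 were among the 19. In 14 of the 19 another AH2 NBS1 peak within 1 kb did overlap an R2K.Artm NBS1 peak. For those 14 the region, as distinct from the peak, was thus shared by both lines. The same is not given here for the 26 peaks in AH2 alone that had an R2K.Artm NBS1 peak within 1 kb.

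**Figure D3:**
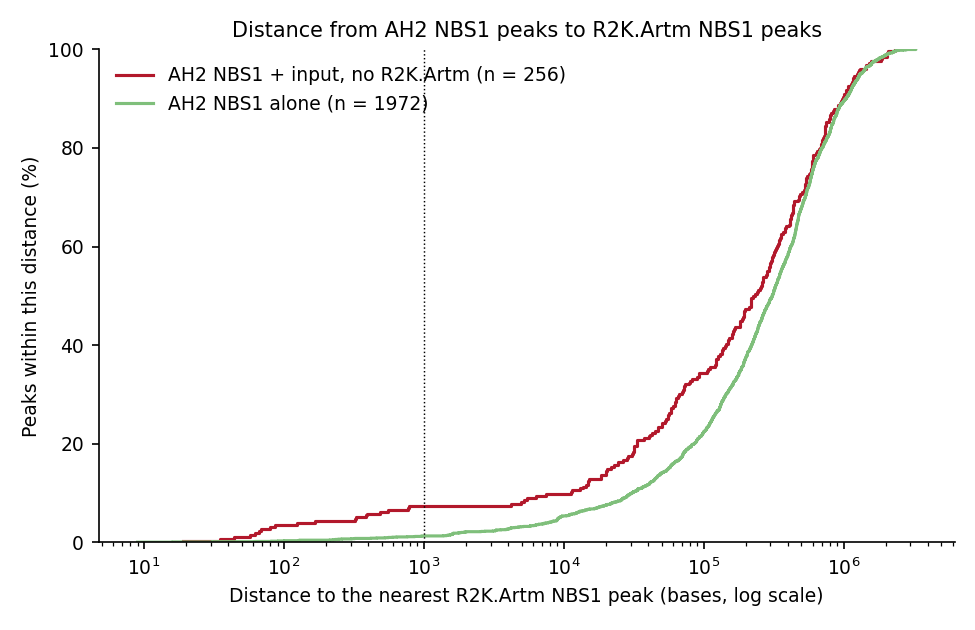
Share of AH2 NBS1 peaks (vertical, percent) whose nearest R2K.Artm NBS1 peak lies within the distance on the horizontal axis (bases, log scale), for the 256 peaks on input and the 1972 peaks in AH2 alone; the dotted line marks 1 kb. The line of the 256 stands higher at short distances, 7.42% against 1.32% at 1 kb, and the lines meet near 1 Mb.

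Counted among themselves alone, the 256 peaks were mostly single sites. Joined where they were under 100 kb apart, they formed 231 single peaks, 11 pairs and 1 group of 3. The group of 3 was on chromosome 8 between 73635637 and 73694128. The closest pairs spanned 348 bases on chromosome 6 at 145286338 to 145286685 and 409 bases on chromosome 11 at 103934027 to 103934435. Counting AH2 NBS1 peaks of every class, 42 of the 256 had another within 10 kb, 16.4% (12.4 to 21.4%), against 11.3% over the 4 classes and 17.1% (14.6 to 19.9%) of the 777. Without the 19 peaks near R2K.Artm this share was 11.0%. Within 100 kb, 117 of the 256 had another AH2 NBS1 peak of any class, 45.7% (39.7 to 51.8%). The share was 35.7% over the 4 classes and 38.9% (35.5 to 42.3%) of the 777.

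Chromosome 8 held the most, 33 of the 256, 12.9% (9.33 to 17.6%), against 7.11% over the 4 classes. Shares in the other classes were 6.69% of those with both lists, 8.92% (6.80 to 11.6%) of those with R2K.Artm only, whose interval overlapped, and 6.03% of those in AH2 alone. Per AH2 NBS1 peak in the allowed regions, chromosome 8 yielded 11.1 members for each 100 and chromosome 7 yielded 1.32. Chromosome 7 held 3, 1.17% (0.399 to 3.39%), against 5.08%. Its interval overlapped those of the class with both lists, 3.99% (2.82 to 5.61%), and of the class with R2K.Artm only, 4.83% (3.32 to 6.99%), and not that of AH2 alone, 6.09% (5.11 to 7.23%). On the other 17 chromosomes the intervals of the 256 and of the 4 classes together overlapped. Chromosomes 8 and 7 were singled out after the 19 shares were seen, and no test was made.

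**Figure D4:**
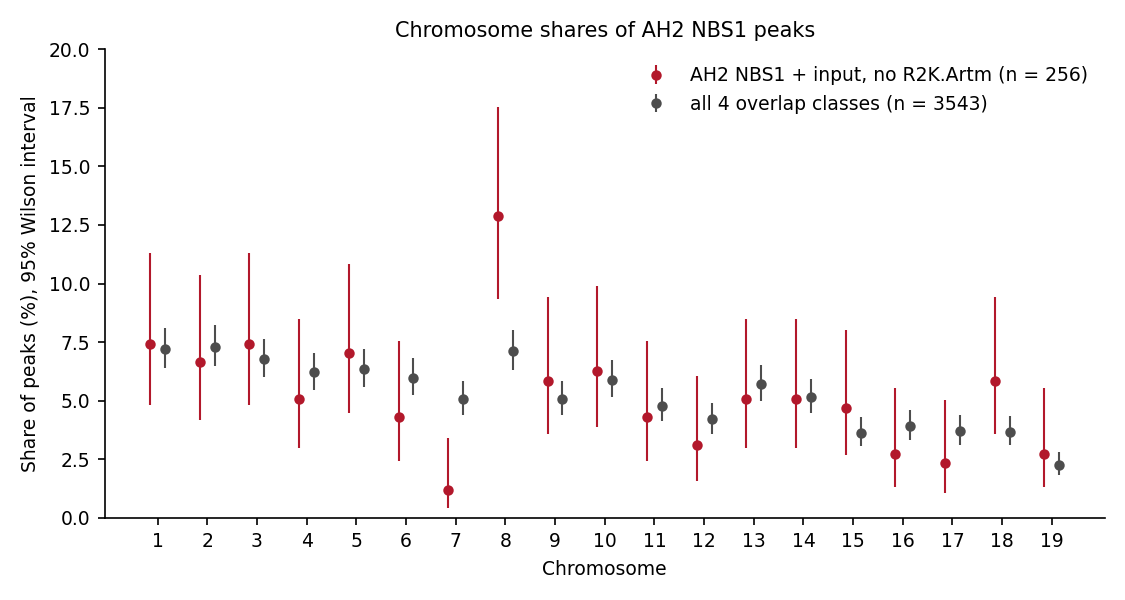
Share of peaks on each autosome (percent) for the 256 peaks and for all 3543 peaks of the 4 classes, with 95% Wilson intervals as bars. Chromosome 8 at 12.9% and chromosome 7 at 1.17% are the points whose intervals lie apart from those of all classes.

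Many of the 33 on chromosome 8 lay in a few stretches crowded with input peaks. Of the 256, 17 had at least 5 input peaks within 50 kb, their own included, 6.64% (4.19 to 10.4%), against 2.15% over the 4 classes. The better comparison is with the 777, which also start with an input peak of their own: 22 of them did, 2.83% (1.88 to 4.25%), and the intervals just overlapped. Of the 17, 12 were on chromosome 8. So were 36 of the 76 such peaks of the 4 classes together, 16 of the 32 in AH2 alone and 5 of the 22 among the 777. Chromosome 8 was thus frequent among crowded peaks of other classes as well. Peaks on chromosome 8 outside such neighbourhoods were 21 of the 256, 8.20% (5.43 to 12.2%), against 6.10% over the 4 classes, and the intervals overlapped. Both shares are of all peaks, with the crowded ones kept in the denominator.

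On chromosome 8, 4 stretches held 2 or more of the 17 each, and 1 more of the 17 lay alone at 56208730 to 56209066. On chromosome 10, 2 of the 17 were neighbours between 57701859 and 57702515, with 6 input peaks around them. Counted with 50 kb on each side, the stretch from 19670202 to 19927207 had 22 input peaks, 14 of AH2 NBS1 and 6 of R2K.Artm NBS1, and it holds the widest of the 256. Its 4 members had NBS1 scores between 64.1 and 65.6, while their input scores ran from 51.5 to 316. The stretch from 57975373 to 57990969 had 13 input, 3 AH2 NBS1 and 2 R2K.Artm NBS1 peaks, and its 2 members had NBS1 scores of 56.6 and 53.9 over input scores of 103 and 96.5. The stretch from 71957764 to 72077969 had 23, 9 and 6 in that order, and that from 73635637 to 73694128 had 16, 7 and 6. All 4 therefore held NBS1 peaks of both lines. That those of R2K.Artm lay at other positions than the 256 was fixed by the rule that chose the peaks. The subtracted list had 1 interval in the last stretch and none in the first 3.

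**Figure D5:**
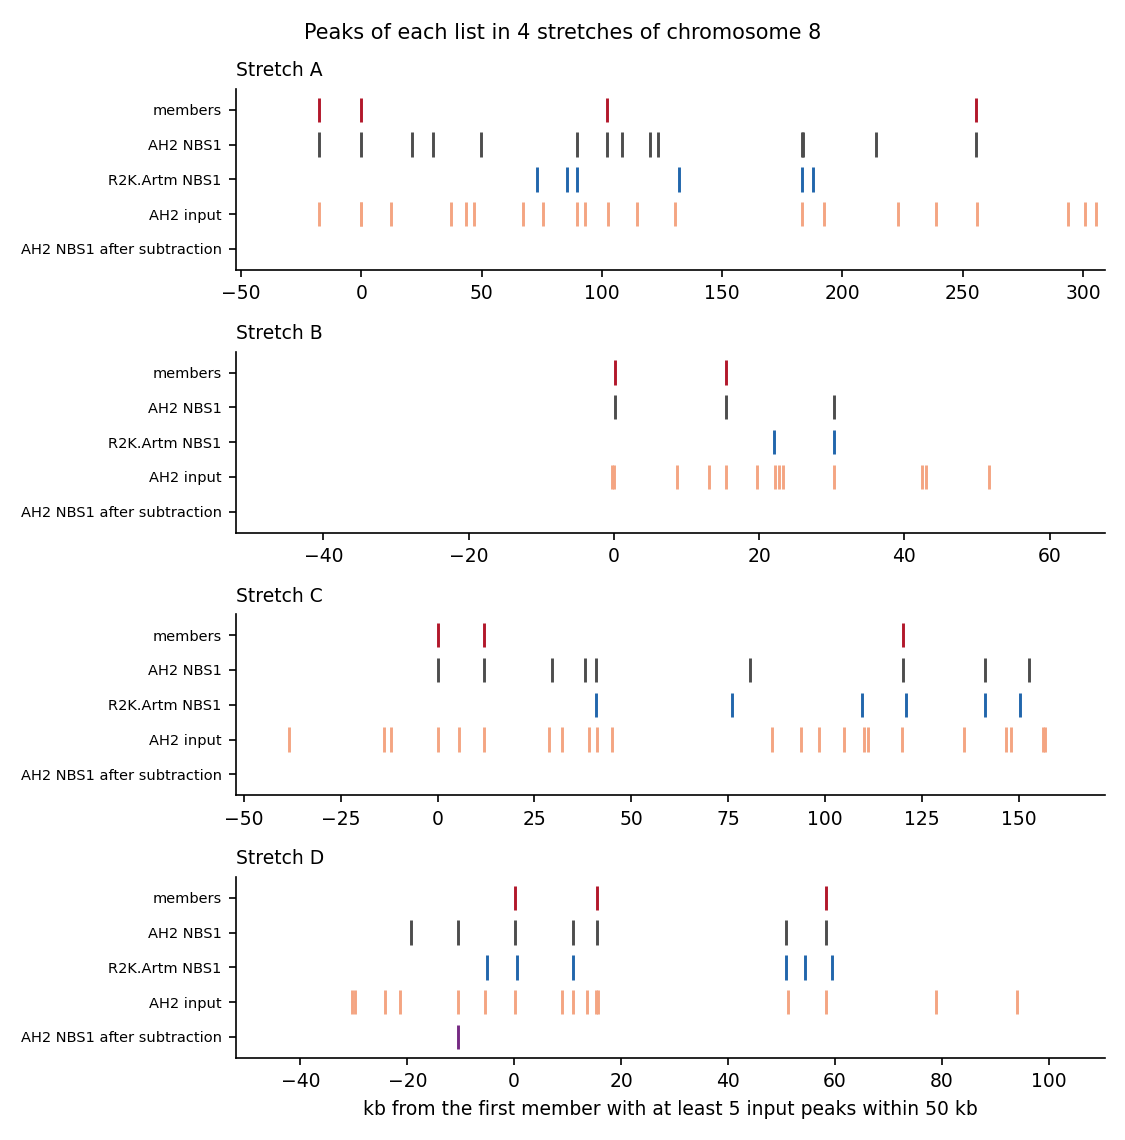
Peaks of each list in the 4 stretches of chromosome 8, from A to D in order along the chromosome, as ticks at their distance in kb from the first of the 256 (members) with at least 5 input peaks within 50 kb. Input ticks are the most numerous in each stretch (22, 13, 23 and 16), and R2K.Artm NBS1 ticks stand between or beside the members.

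Within the last stretch the 3 members had NBS1 scores of 60.7, 93.7 and 84.0 and input scores of 61.5, 358 and 186. They lay 62, 4200 and 765 bases from an R2K.Artm NBS1 peak. Single sites away from chromosome 8 could be as crowded. The peak on chromosome 2 at 181651996 had 10 input, 9 further AH2 NBS1 and 6 R2K.Artm NBS1 peaks within 50 kb, with an NBS1 score of 92.2 and an input score of 334.

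Few peaks of the 4 classes lay in the antigen receptor windows left after Igh and Igk were removed. The classes also leave out peaks in the subtracted list, so these counts do not describe all AH2 NBS1 peaks at such loci. With Igh and Igk removed by the rule, the windows of Igl, Tcra/Tcrd and Tcrb held 0 of 256. Over the 4 classes these windows held 4, 8 and 2 of 3543 peaks, 0.113%, 0.226% and 0.0564%, so at this number the 256 cannot be set apart. For each window a count of 0 allows up to 1.17%, taken as 3 counts of 256. The Tcrg window, from 19 to 21 Mb of chromosome 13, held 1, at 19090530 to 19090660, against 0.0847% over the 4 classes. That peak had an NBS1 score of 54.0, an input score of 56.0 and 110.5 kb to the nearest R2K.Artm NBS1 peak, so it was near the lower limit in each list. All 10 peaks removed by region in the Igh window overlapped the subtracted list, against 57 of the 313 in the allowed regions. An interval of the subtracted list lay within 100 kb of 29 of the 256, 11.3% (8.00 to 15.8%), against 11.7% over the 4 classes.

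Turned round, the same rule found fewer peaks in R2K.Artm. In the allowed regions, subtracted list aside, 143 of the 904 R2K.Artm NBS1 peaks on input had no AH2 NBS1 peak, 15.8% (13.6 to 18.3%), with a median score of 66.7 in their own list. In AH2 it was 313 of 1092, 28.7% (26.1 to 31.4%). As shares of all NBS1 peaks in those regions the values were 5.42% (4.62 to 6.35%) and 7.19% (6.46 to 8.00%). The input came from AH2 and the lists differ in length and unknown depth, so line and library cannot be told apart in this difference.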

How the data were processed

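Bowtie, MACS 1.4.2 and build mm9 are named in the submitters' processing notes. The authors deposited 4 peak lists with a score per peak (minimum 50): 1 for each of the 3 libraries, and AH2 NBS1 after subtraction of other peaks. Not given in the sources used here were the control of each call, the way of subtraction and the scale of the score. Depth is unknown, and the first 3 lists were called per library, so a missing peak may be a weak one.

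Intervals were joined in Python 3.11.15 (numpy 2.4.6, pandas 2.3.3, scipy 1.17.1; figures with matplotlib 3.10.9), with 1 shared base as overlap; the join was checked on simulated data. Starts are printed with 1 added. Shares have Wilson intervals and medians have order-statistic intervals (95%). Peaks were named by rule: the 12 highest and 3 lowest scores, the 5 highest input scores, the 5 widest, the 5 nearest to R2K.Artm, the 3 smallest overlaps, the 3 nearest outsiders, those in antigen receptor windows, and the largest groups. Beyond this, peaks at the 5 Mb limit, chromosome 8 stretches, the crowded chromosome 2 site, and the limits of 80 and 300 bases and of 5 input peaks within 50 kb were chosen after values were seen. Pairs tied for the largest groups; the shortest are named. Receptor windows are whole megabases from general knowledge. The members and measures were chosen with earlier results of these data known. Gene names, sequence and repeats were not used here, as the reference tables at hand are of another build.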

Additional observations from a re-analysis of the deposited data

How the results depend on the processing

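No paired analysis was possible because there is 1 library per group; leaving one out would empty its group. Among 59 values under other settings, for 8 results, 42 stayed within the 95% interval of the reported value (counts within 1.5 times). With NBS1 scores of at least 100 there were 44 peaks, with a median score of 120, a median width of 65.5 bases, input peaks of 101.5 bases, 4.55% with an R2K.Artm peak within 1 kb, 11.4% with another AH2 NBS1 peak within 10 kb and 38.6% covered by input over their whole width. With input scores of at least 100 there were 98 peaks, with a median width of 120 bases, an input score of 131, 13.3% near R2K.Artm and 24.5% near another AH2 NBS1 peak. With no region excluded these last values were 15.5% and 27.1%. With no R2K.Artm peak within 1 kb, 11.0% were near another AH2 NBS1 peak; within 100 kb instead of 10 kb, 45.7% were. Coverage of at least 90% of the width held for 48.8%. A score limit raises the median score, and a wider distance or lower coverage raises a share, by construction; for the other values the cause was not tested. Without chromosome 8, an alternative added after seeing the data, all 8 results stayed within these limits. The sequence and annotation part of the design was not run, as no mm9 sequence was at hand. Peak lists give no signal below the caller's limit, so a site with no R2K.Artm peak is not shown to lack NBS1 there.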
